A study of Homo sapiens with 6 samples.

Results

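The cell line NCI-H1299, derived from a non-small cell lung carcinoma, was given 10 µM norepinephrine (NE), the catecholamine released by sympathetic nerves, for 48 h, and 3 NE libraries were compared with 3 libraries of Ctrl cells. Both groups were starved first and then kept in medium with 2% serum, and the sample records name the Ctrl vehicle both as DMSO and as PBS. No label says that the libraries came from separate cultures, so the p-values measure the spread between these libraries. The genes described here are 9 genes of matrix breakdown around the cell, taken by name: the matrix metalloproteinases (MMPs) MMP1, MMP2, MMP9, MMP14 and MMP15, the tissue inhibitors of metalloproteinases TIMP1, TIMP2 and TIMP3, and PLAU. Of these, 8 had a row among the 26025 genes of the table and all 8 passed the filter on low values. TIMP3 had no row in the table used here and is not analysed.

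MMPs are zinc proteases that are made as inactive proenzymes and cut collagens, gelatin and other proteins of the extracellular matrix. MMP1 is an interstitial collagenase, MMP2 and MMP9 are the gelatinases, and MMP14 and MMP15 are anchored in the plasma membrane. TIMPs bind the active site of MMPs, and TIMP2 also helps MMP14 to activate the MMP2 proenzyme at the cell surface. PLAU encodes urokinase, which turns plasminogen into plasmin, a broad protease that also activates some MMP proenzymes. PLAUR is the receptor of urokinase, and serpins inhibit it. These enzymes are linked to invasion in lung carcinoma.

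Transcripts of 5 of the 6 proteases fell with NE, and so did TIMP1. Of the 8 measured genes, 6 were lower in NE at an adjusted p under 0.05 and none was higher, in limma's test with Benjamini-Hochberg adjustment over 15013 genes. Over all genes tested, 25.5% were lower and 24.6% were higher by the same test. With a log2 fold change of -1 or less as a further criterion, 5 of the 8 genes were lower, against 6.55% of all genes. TIMP1 only just met it, and by edgeR and by DESeq2, which the study used, 4 genes did. No member was higher by that criterion, against 7.47% of all genes with a log2 fold change of 1 or more. Every NE library lay below every Ctrl library for 6 of the 8 genes, against 28.9% of all genes. The median log2 fold change of the 8 genes was -1.04, and that of all genes tested was 0.01.

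**Figure D1:**
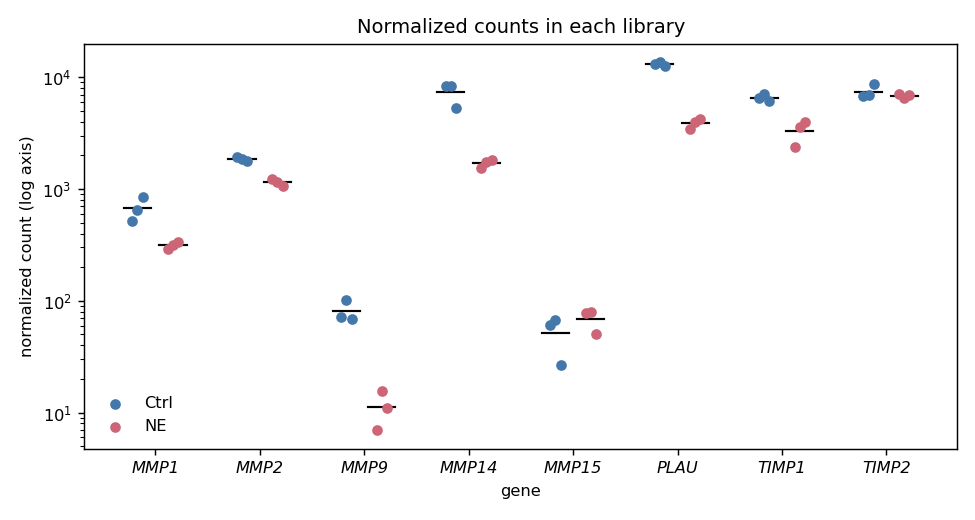
Normalized counts (log axis) of the 8 measured genes, with a point for each library and a bar for the mean of the 3 Ctrl (blue) and 3 NE (red) libraries. The groups do not overlap for MMP1, MMP2, MMP9, MMP14, PLAU and TIMP1, and they overlap for MMP15 and TIMP2.

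The 6 libraries held between 16852751 and 17979206 reads on genes, with size factors from 0.955 to 1.09. Ctrl replicate 3 stood apart, with 7305 genes at 0 against 4833 or fewer in each other library. Some values are therefore also given without it. Mitochondrial transcripts took 4.68% to 5.46% of the reads in Ctrl libraries against 6.05% to 9.26% with NE, and the part of this in the results was not tested. Removing the trend with GC content in each library lowered the number of genes called in all, from 3693 to 1945 higher and from 3828 to 2834 lower, and it moved several of the genes below. Among markers of lung epithelium, EPCAM, CDH1 and NKX2-1 were at or near 0 in both groups and SFTPC had no row, while KRT8 and KRT18 were abundant and the 3 epithelial markers that passed the filter all fell with NE. The summed epithelial markers spanned 27694 to 38878 normalized counts without NE and 11935 to 14073 with it. The mesenchymal-type markers, mostly vimentin, spanned 63559 to 81355 without NE and 49644 to 63520 with it. By gene, 3 of these 5 markers were called higher and 1 lower. CDH2, FN1 and ZEB1 had log2 fold changes of 0.64, 0.77 and 0.61, vimentin (VIM) had -0.38, and SPARC was not called. With the GC correction only FN1 of these kept its call. Markers of other cells summed to little in every library: fibroblast markers reached 49.2 normalized counts, leukocyte markers 83.8 and endothelial markers 87.2 at most, and PTPRC and CD3E had no row. In bulk RNA, fewer cells that express a gene and less RNA of it per cell cannot be told apart.

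The promoters of 4 measured members could be read from RefSeq windows on GRCh38.p14 that run from 250 bases before to 50 bases after the transcription start. TIMP3 had a window too, with no level to set beside it, and MMP1, MMP2, MMP9 and TIMP2 are named only. The 220 bases that begin 250 bases before each start, all on the plus strand, are shown because NE signals through cAMP in many cells and because members that fell can be set beside MMP15, for which no fall was called. Capitals mark 3 kinds of match on either strand: TGACG, the core of the cAMP response element, TGANTCA, the AP-1 motif through which many MMP promoters are known to be driven, and GGGCGG, the GC box bound by Sp1 and related factors. The full palindromic cAMP response element TGACGTCA, which contains TGACG, was searched as well.

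MMP14, chr14:22836335-22836554: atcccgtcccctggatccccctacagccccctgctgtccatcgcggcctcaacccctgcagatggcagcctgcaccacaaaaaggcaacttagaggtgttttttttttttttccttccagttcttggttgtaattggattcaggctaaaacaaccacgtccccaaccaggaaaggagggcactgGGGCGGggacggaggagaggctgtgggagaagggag
PLAU, chr10:73910882-73911101: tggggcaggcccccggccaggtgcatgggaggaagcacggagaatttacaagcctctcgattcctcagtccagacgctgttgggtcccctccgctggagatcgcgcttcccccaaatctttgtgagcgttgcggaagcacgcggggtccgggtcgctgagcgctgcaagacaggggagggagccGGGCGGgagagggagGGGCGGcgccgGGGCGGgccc
TIMP1, chrX:47582186-47582405: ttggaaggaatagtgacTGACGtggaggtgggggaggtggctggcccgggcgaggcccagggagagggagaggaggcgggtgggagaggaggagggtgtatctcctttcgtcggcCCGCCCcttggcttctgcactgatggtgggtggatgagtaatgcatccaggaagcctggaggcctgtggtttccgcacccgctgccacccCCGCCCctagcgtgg
MMP15, chr16:58025504-58025723: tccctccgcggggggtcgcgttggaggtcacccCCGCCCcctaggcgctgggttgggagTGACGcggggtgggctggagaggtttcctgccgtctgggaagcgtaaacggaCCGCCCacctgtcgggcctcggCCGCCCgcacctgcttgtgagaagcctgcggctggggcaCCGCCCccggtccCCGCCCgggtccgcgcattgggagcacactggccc

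The MMP14 stretch held 1 GC box, at -66. The PLAU stretch held 3 GC boxes close to the start, at -66, -51 and -40, and a second RefSeq window of PLAU, whose start lies at -522 from this one, held none of the motifs. TIMP1 had 2 GC boxes, at -135 and -45, and 1 TGACG at -233. MMP15 had the most GC boxes of the 4 stretches, with 5, and 1 TGACG at -191. None of these windows held TGACGTCA or TGANTCA, which says only that these letters are not in them. Of 35116 RefSeq promoter windows, 45% held GGGCGG, 24.6% held TGACG, 7.71% held TGANTCA and 1.85% held TGACGTCA. The matches are a description of the letters and were not related to the change with NE.

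Of the membrane-type MMPs among the genes described here, MMP14 fell and MMP15 did not pass the test. MMP14 (ENSG00000157227, hg38 chr14:22836560-22849041, plus strand) encodes MT1-MMP, the cell-surface collagenase that activates proMMP2. Its normalized counts were 8317, 8454 and 5275 in Ctrl replicates 1 to 3 and 1547, 1742 and 1811 in NE replicates 1 to 3. Each NE library lay far below the lowest Ctrl library, which was replicate 3. The means were 7349 ± 1797 in Ctrl and 1700 ± 137 in NE (SD, n = 3), a level 4.32-fold lower with NE. The log2 fold change on the log2(normalized count + 1) scale was -2.08 with a standard error of 0.18, and limma's adjusted p was 7.6e-05. Without Ctrl replicate 3 it was -2.30, and after correction for GC content -1.55.

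MMP15 (ENSG00000102996, hg38 chr16:58025754-58046901, plus strand) encodes MT2-MMP, a membrane-anchored relative of MMP14. It was scarce, with 60.7, 67.4 and 26.5 normalized counts in Ctrl and 78.1, 79.4 and 50.3 in NE libraries. Ctrl replicate 3 was the lowest library, and the groups overlapped. The means of 51.5 ± 22.0 and 69.2 ± 16.5 (SD, n = 3) gave a log2 fold change of 0.50 with a 95% confidence interval from -0.34 to 1.33, and limma's adjusted p was 0.288. Its transcript was the richest in GC among the members, at 65.0%, and after correction for GC content the log2 fold change became 1.14 with an adjusted p of 0.0157 by limma. Without Ctrl replicate 3 it was 0.08.

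The secreted gelatinases both fell, from very different levels. MMP9 (ENSG00000100985, hg38 chr20:46008908-46016561, plus strand), gelatinase B, had 71.2, 102 and 68.6 normalized counts in Ctrl and 6.92, 15.5 and 11.0 in NE libraries. These rest on 68, 98 and 70 reads in Ctrl and only 7, 16 and 12 reads in NE, so counting error weighs heavily on this gene. All NE libraries were still well below all Ctrl libraries. The log2 fold change was -2.79 with a standard error of 0.36, the lowest value among the 8 genes, and limma's adjusted p was 0.000398. After correction for GC content it was -2.18 with an adjusted p of 0.00134 by limma. The antisense gene SLC12A5-AS1 shares 18.4% of the exon bases of MMP9, and it had at most 3.87 normalized counts in any library.

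MMP2 (ENSG00000087245, hg38 chr16:55389700-55506691, plus strand), gelatinase A and the substrate of MMP14 in proenzyme activation, had 1928, 1859 and 1797 normalized counts in Ctrl and 1218, 1146 and 1075 in NE libraries. The libraries were tight within each group and the groups stood apart. The means were 1861 ± 65.4 and 1146 ± 71.9 (SD, n = 3), with a log2 fold change of -0.70, a standard error of 0.10 and an adjusted p of 0.000677 by limma. This call was lost after correction for GC content, where the log2 fold change was -0.28 and the adjusted p 0.0604 by limma.

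MMP1 (ENSG00000196611, hg38 chr11:102789401-102798160, minus strand), the collagenase of fibrillar collagen, had 519, 647 and 855 normalized counts in Ctrl and 291, 319 and 339 in NE libraries. The Ctrl libraries were spread and replicate 3 was the highest, while the NE libraries were close together. The means were 674 ± 170 and 316 ± 24.4 (SD, n = 3), with a log2 fold change of -1.06, a standard error of 0.18 and an adjusted p of 0.00143 by limma. It had the lowest GC content of the 8 genes, 43.0%, and the correction for GC content moved it to -1.45. Without Ctrl replicate 3 it was -0.88, which no longer met the fold criterion.

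Urokinase was among the most abundant transcripts of the group. PLAU (ENSG00000122861, hg38 chr10:73909177-73917496, plus strand) had 13266, 13619 and 12653 normalized counts in Ctrl and 3474, 3968 and 4231 in NE libraries. The spread within each group was small beside the distance between them. The level with NE was 3.39-fold lower, from 13179 ± 489 to 3891 ± 384 (SD, n = 3), with a log2 fold change of -1.76, a standard error of 0.10 and an adjusted p of 1.3e-05 by limma. After correction for GC content it was -1.41. The antisense gene C10orf55 shares 31.0% of the exon bases of PLAU and had 46.1 to 66.4 normalized counts in Ctrl and 20.1 to 26.2 in NE libraries. The library kit is not described as stranded, so reads in the shared bases cannot be assigned to a strand.

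The measured TIMPs differed. TIMP1 (ENSG00000102265, hg38 chrX:47582408-47586789, plus strand), a secreted inhibitor that also binds proMMP9, had 6562, 7048 and 6116 normalized counts in Ctrl and 2394, 3580 and 3999 in NE libraries. NE replicate 1 was the lowest, and all NE libraries were below all Ctrl libraries. The means were 6575 ± 466 and 3324 ± 832 (SD, n = 3), with a log2 fold change of -1.01, a standard error of 0.18 and an adjusted p of 0.00154 by limma. After correction for GC content it was -0.49 with an adjusted p of 0.0405 by limma, and without NE replicate 1 it was -0.79, both short of the fold criterion. By edgeR it was -0.99 and by DESeq2 -0.98, just short of that criterion.

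TIMP2 (ENSG00000035862, hg38 chr17:78852977-78925387, minus strand), the partner of MMP14 in proMMP2 activation, had 6752, 6885 and 8757 normalized counts in Ctrl and 7113, 6554 and 6948 in NE libraries. The groups overlapped, and Ctrl replicate 3 was the highest library. The means were 7465 ± 1121 and 6872 ± 287 (SD, n = 3), and the log2 fold change was -0.11 with a 95% confidence interval from -0.38 to 0.16 and an adjusted p of 0.464 by limma. Its sign turned to 0.01 without Ctrl replicate 3, to 0.17 with quantile normalization and to 0.31 with the GC correction, none of them past the threshold. A two-sided exact permutation test gave p = 0.7 for TIMP2 and 0.5 for MMP15. For the other 6 genes it gave 0.1, the smallest p that 3 libraries against 3 allow.

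**Figure D2:**
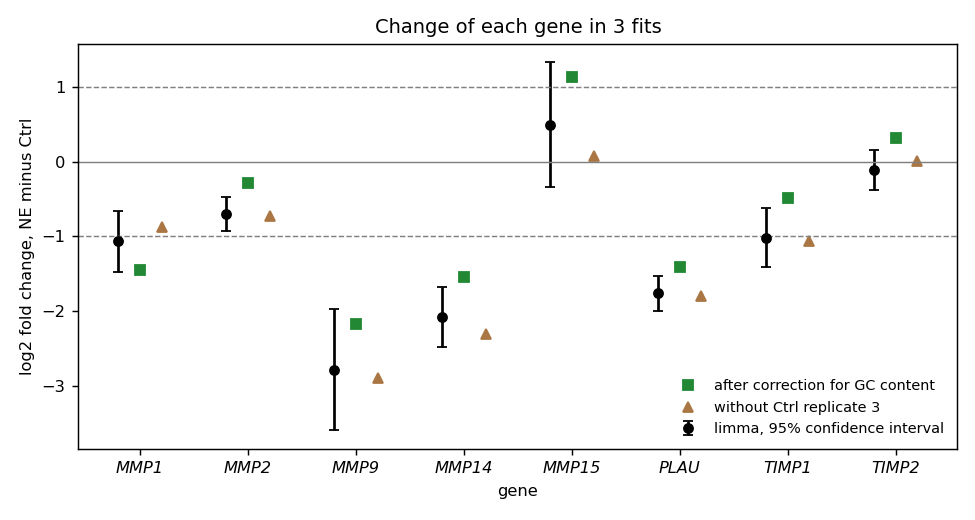
Log2 fold change (NE minus Ctrl) of the 8 genes in 3 fits, with circles and 95% confidence intervals for limma, squares for the fit after correction for GC content and triangles for the fit without Ctrl replicate 3. Dashed lines mark log2 fold changes of -1 and 1. MMP9, MMP14 and PLAU stay below -1 in all 3 fits, while MMP2 and TIMP1 move toward 0 and MMP15 moves above 1 with the GC correction.

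Levels of different genes can be set beside each other only per length, here as reads per kilobase of exon scaled to the reads on genes of each library (RPKM). In Ctrl, TIMP1 at 252 ± 13.9 and PLAU at 248 ± 4.96 RPKM led and were not separated (SD, n = 3). MMP14 at 88.0 ± 20.1 and TIMP2 at 66.9 ± 11.4 RPKM followed, and their libraries overlapped too. MMP2 at 22.0 ± 0.49, MMP1 at 13.7 ± 3.71, MMP9 at 1.91 ± 0.41 and MMP15 at 0.67 ± 0.28 RPKM came next, each separated from its neighbours. With NE, TIMP1 led at 141 ± 40.5 RPKM, and PLAU at 80.8 ± 11.3 and TIMP2 at 67.6 ± 3.28 RPKM overlapped. MMP14 at 22.5 ± 2.72 RPKM stood below TIMP2 in every NE library. MMP2 at 14.9 ± 0.31 and MMP1 at 7.07 ± 0.84 RPKM kept their places, and MMP15 at 0.99 ± 0.21 was above MMP9 at 0.29 ± 0.12 RPKM. Counted per coding length instead of exon length, 5 of the 8 genes kept their rank in Ctrl and TIMP2 came first. MMP14 then had rank 4, so its order against TIMP2 in Ctrl depended on the length used.

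Ratios within a library depend little on its scaling when both genes are abundant. For this reason 4 pairs of a protease and an inhibitor were compared as log2 ratios of normalized counts, with 1 added to each count. No test was run on them. MMP14 over TIMP2 was 0.30, 0.30 and -0.73 in Ctrl and -2.20, -1.91 and -1.94 in NE libraries, a mean difference of -1.97. MMP2 over TIMP2 was -1.81, -1.89 and -2.28 in Ctrl and -2.54, -2.52 and -2.69 in NE libraries, a mean difference of -0.59. For both pairs every NE library lay below every Ctrl library. MMP9 over TIMP1 was -6.51, -6.10 and -6.46 in Ctrl and -8.24, -7.76 and -8.38 in NE libraries, a mean difference of -1.77, so MMP9 fell further than TIMP1. MMP1 over TIMP1 was -3.66, -3.44 and -2.84 in Ctrl and -3.04, -3.49 and -3.56 in NE libraries, which overlapped, with a mean difference of -0.05. The ratios were not computed after correction for GC content, which moved MMP1 to a log2 fold change of -1.45 and TIMP1 to -0.49. The small difference for this pair therefore holds for the uncorrected counts only.

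**Figure D3:**
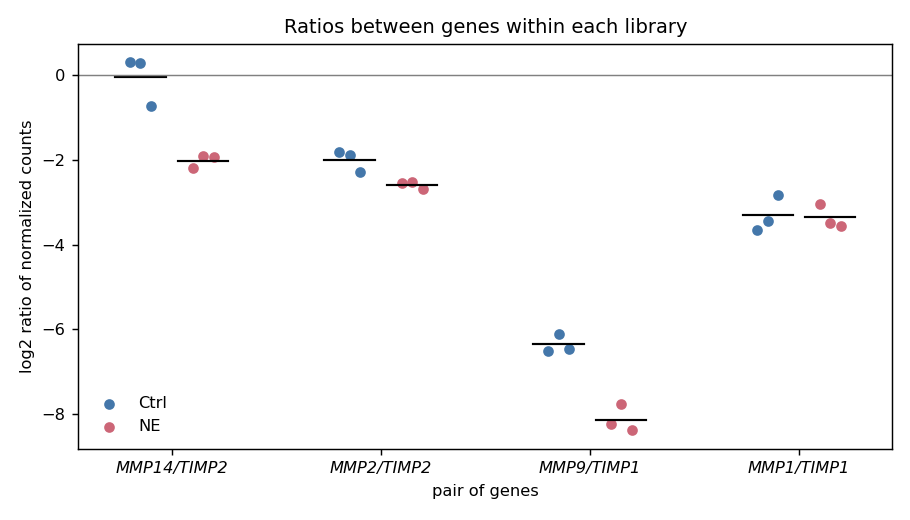
Log2 ratio of normalized counts within each library for 4 pairs of a protease and an inhibitor, with a point per library and a bar for the mean of the 3 Ctrl (blue) and 3 NE (red) libraries. The NE libraries are below the Ctrl libraries for MMP14/TIMP2, MMP2/TIMP2 and MMP9/TIMP1, and mixed with them for MMP1/TIMP1.

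The plasminogen system around PLAU moved with it in part. Of 13 other genes listed, 12 had a row and 10 passed the filter, of which 6 were lower and 2 were higher, with a median log2 fold change of -0.54. Among all genes tested, 25.5% were lower and 24.6% were higher. SERPINB2, an inhibitor of urokinase, had 292, 258 and 322 normalized counts in Ctrl and 57.3, 50.4 and 47.5 in NE libraries. It fell from 291 ± 32.1 to 51.7 ± 5.04 (SD, n = 3), with a log2 fold change of -2.47 and an adjusted p of 3.52e-05 by limma.

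The urokinase receptor PLAUR fell from 9553 ± 992 to 3703 ± 440 normalized counts (SD, n = 3), with a log2 fold change of -1.37 and an adjusted p of 9.85e-05 by limma. S100A10, a plasminogen receptor subunit at the cell surface, changed by -1.18 on the log2 scale with an adjusted p of 0.001 by limma. Without Ctrl replicate 3 it changed by -1.40. Other serpins went up. SERPINE2, protease nexin-1, which inhibits thrombin and urokinase, rose 2.11-fold from 7547 ± 376 to 15929 ± 2585 normalized counts, with a log2 fold change of 1.07 and an adjusted p of 0.000301 by limma. With the GC correction SERPINE2 was at 0.81, short of the fold criterion. SERPINI1, neuroserpin, an inhibitor of tissue plasminogen activator, rose from 125 ± 16.5 to 438 ± 71.7, with a log2 fold change of 1.80 and an adjusted p of 0.00012 by limma. PLAT, which encodes tissue plasminogen activator, had means of 215 in Ctrl and 163 in NE, a log2 fold change of -0.40 and an adjusted p of 0.0683 by limma. Without Ctrl replicate 3 these were -0.46 and 0.0253. PLG, plasminogen itself, had no row in the table used here.

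Other MMPs were mostly scarce. Of 18 listed, 13 had a row and 7 passed the filter, of which 2 were higher and 2 were lower, with a median log2 fold change of 0.10. Both counts were near the shares of all genes tested, 24.6% higher and 25.5% lower. MMP16, a further membrane-type MMP, had 147, 172 and 244 normalized counts in Ctrl and 571, 538 and 432 in NE libraries. It moved opposite to MMP14, a comparison of these genes and not of membrane-type MMPs as a class. The log2 fold change of MMP16 was 1.47 with an adjusted p of 0.000538 by limma, and 0.76 after correction for GC content. Without Ctrl replicate 3 it was 1.68. The other 3 called genes, named after their values were seen, were MMP13 with a log2 fold change of 0.74, MMP11 with -0.96 and MMP17 with -0.99. None of these 3 was called after correction for GC content, and MMP13 kept an adjusted p under 0.05 in only 6 of 16 alternatives.

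Among 4 other MMP inhibitors, TIMP4 and A2M had no row. TFPI2, a matrix-bound serine protease inhibitor that blocks plasmin, had 1496, 1378 and 1649 normalized counts in Ctrl and 4549, 5770 and 6080 in NE libraries. It rose 3.63-fold, with a log2 fold change of 1.85 and an adjusted p of 3.54e-05 by limma. RECK, a membrane-anchored inhibitor of several MMPs, had means of 181 and 232, a log2 fold change of 0.36 and an adjusted p of 0.0771 by limma, and the value turned to -0.07 with the GC correction. Without Ctrl replicate 3 it was 0.41 with an adjusted p of 0.0301 by limma.

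Of 11 activators and partners of MMPs, all had a row and 7 passed the filter, of which 2 were higher and 2 were lower. These counts too were near the shares of all genes tested, 24.6% higher and 25.5% lower. BSG, basigin or EMMPRIN, which is known to induce MMPs, fell from 19521 ± 1014 to 10665 ± 785 normalized counts (SD, n = 3), with a log2 fold change of -0.87 and an adjusted p of 0.000242 by limma. FURIN, the proprotein convertase that cuts the MMP14 proenzyme, had 3558, 3450 and 2063 normalized counts in Ctrl and 2003, 1996 and 1967 in NE libraries, and its log2 fold change was -0.56 with an adjusted p of 0.0341 by limma. Both calls were lost with the GC correction, where BSG was at -0.25 and FURIN at 0.05. FURIN was at -0.82 without Ctrl replicate 3, and leaving out another library raised its adjusted p by limma to as much as 0.113. The other 2 called genes, named after their values were seen, were THBS1 with a log2 fold change of 0.63 and PCSK5 with 0.89. PCSK5 was called in only 7 of 16 alternatives, and not with the GC correction, where the adjusted p was 0.0984 by limma.

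The related ADAM and ADAMTS metalloproteases shed cell-surface proteins or cut proteoglycans. Of 30 listed, 26 had a row and 17 passed the filter, of which 5 were higher and 1 was lower, with a median log2 fold change of 0.31. The share called higher was near the 24.6% of all genes, and the 1 lower gene stood against 25.5% of all genes lower. The number called higher ran from 4 to 7 when 1 library was left out. ADAM12 rose from 15.0 ± 5.90 to 44.4 ± 6.06 normalized counts, with a log2 fold change of 1.55 and an adjusted p of 0.00608 by limma. ADAM22 rose from 538 ± 51.6 to 1205 ± 154, with a log2 fold change of 1.16 and an adjusted p of 0.000256 by limma. With the GC correction ADAM22 was at 0.56, short of the fold criterion, with an adjusted p of 0.00275 by limma. ADAMTS6 rose from 152 ± 50.8 to 295 ± 23.5, with a log2 fold change of 1.002 and an adjusted p of 0.00553 by limma. It fell short of the fold criterion in edgeR, at 0.95, and in DESeq2, at 0.96, and was at 1.25 without Ctrl replicate 3. With the GC correction the call was lost, with an adjusted p of 0.0543 by limma. After that correction 3 genes of this list were higher and none was lower. They were ADAM12, ADAM22 and ADAM8, the last named after its values were seen. ADAM8 was not called before, with an adjusted p of 0.315 by limma. With the correction it was at 1.15 with an adjusted p of 0.0196 by limma.

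**Figure D4:**
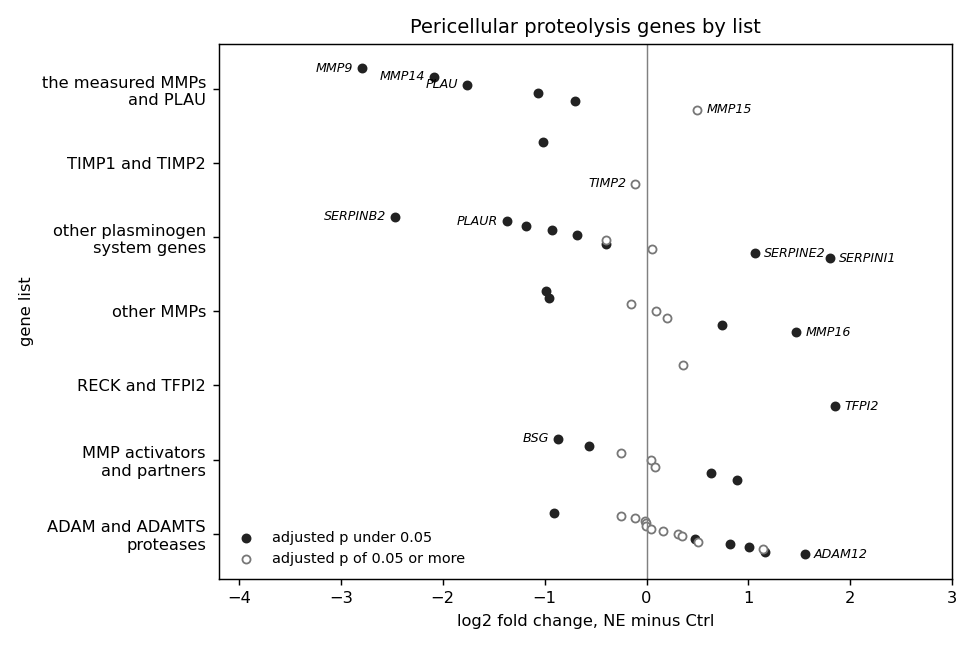
Log2 fold change (NE minus Ctrl) of the measured members and of 5 lists of related genes, with filled circles for genes with an adjusted p under 0.05 in limma's test and open circles for the others. The proteases of the group, apart from MMP15, and SERPINB2 and PLAUR sit left of 0, while SERPINE2, SERPINI1, MMP16, TFPI2 and ADAM12 sit right of 0.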

How the data were processed

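Groups were taken from the sample records, and the group letter and replicate number in each of the 6 column names gave its library. Per the labels, reads were aligned to hg38 with HISAT2 2.0.5 and counted per gene with featureCounts 1.5.0-p3. Although the methods name FPKM, the authors deposited a signal made of gene counts, each library scaled by 1 size factor. Once this factor was removed, 100% of the values were whole reads, within 0.1 read. No molecular identifiers were used, so the true error is at least the counting error.

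limma 3.58.1 (R 4.3.3; lmFit, eBayes with trend) was run on log2(normalized count + 1) for the 15013 genes whose mean was 10 or more, with Benjamini-Hochberg adjustment over all of them. A gene was called changed at an adjusted p under 0.05, and the fold criterion was a log2 fold change of 1 or more, or of -1 or less. The tests were tried on simulated data. Exon length, coding length and GC content came from GENCODE v44, which matched 25813 of the 26025 genes. The GC correction subtracted, in each library, a natural spline on GC content (5 degrees of freedom). Other alternatives were pseudocounts of 0.5 and 5, no filter and a mean of at least 50, TMM scaling, quantile normalization, voom, edgeR 4.0.16 and DESeq2 1.42.0 run on recovered reads, a replicate block and each library left out.

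The 9 genes and the lists were chosen with earlier results of these data known. All 9 are named, as are SERPINE2, PLAUR, PLAT, RECK, TIMP4, BSG and FURIN, and from each other list at most the 6 with the largest log2 fold change among those called and past the fold criterion. Some results are not reported here, and the counts of the lists leave them out.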

Additional observations from a re-analysis of the deposited data

How the results depend on the processing

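With 3 libraries per group, small changes could not be resolved, and MMP9 and MMP15 rest on few reads. The count of 6 members lower held in each fit that left out 1 library, and in all other alternatives except the GC correction, where MMP2 was lost, and the minimum mean of 50, where MMP9 was not tested, each leaving 5. With the GC correction 1 member was higher, also past the fold criterion (MMP15, log2 fold change 1.14, adjusted p 0.0157 by limma), MMP2 was at -0.28, TIMP2 at 0.31, RECK at -0.074 and FURIN at 0.047, and 11 in place of 19 genes of the 6 wider lists were lower. Quantile normalization put TIMP2 at 0.17. Over all genes, the GC correction left 1945 higher and 2834 lower genes, and the cause of these shifts was not tested.

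Leaving out each library in turn, 6 to 6 members were lower and 0 to 0 higher, 4 to 5 were lower past the fold criterion, and 13 to 23 genes of the wider lists were lower and 10 to 18 higher. Over all genes these fits called 2961 to 4890 lower and 2715 to 4802 higher. The log2 fold change ranged from -1.24 to -0.88 for MMP1, from -0.75 to -0.65 for MMP2, from -3.04 to -2.51 for MMP9, from -2.30 to -1.96 for MMP14, from 0.08 to 0.74 for MMP15, from -1.16 to -0.79 for TIMP1, from -0.18 to 0.010 for TIMP2 (0.010 without Ctrl replicate 3) and from -1.83 to -1.68 for PLAU. The difference in log2 ratio ranged from -2.31 to -1.80 for MMP14/TIMP2 and from -0.74 to -0.50 for MMP2/TIMP2. It ranged from -1.96 to -1.65 for MMP9/TIMP1 and from -0.22 to 0.19 for MMP1/TIMP1. With pseudocounts of 0.5 and 5 counted in, MMP9/TIMP1 ranged from -1.96 to -1.41 and the other pairs kept their ranges. These ratio settings were chosen after seeing the data, and none of them corrected for GC content. In rank order, 6 of 8 genes kept their place in Ctrl without Ctrl replicate 2, all 8 without Ctrl replicate 1 or 3, and 5 with coding length.

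Samples of the same replicate number did not deviate together (correlations of -0.16, 0.08 and -0.15). This gave no sign that the numbers pair the libraries, but with 3 libraries per group it cannot exclude a pairing. With the replicate block 6 members were lower and none was higher, and over all genes 3150 were higher and 3358 lower.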

Other observations

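Genes of cathepsins and cystatins and the heparanase gene were listed beside the MMPs. Of 19 cathepsins, cystatins and heparanase, 16 had a row and 15 passed the filter, of which 8 were lower with NE and 1 was higher in limma's test, with a median log2 fold change of -0.54. Among all genes tested, 25.5% were lower and 24.6% were higher. CTSK, the collagen-cutting cathepsin K, had 32.5, 25.9 and 11.8 normalized counts in Ctrl and 52.4, 59.1 and 92.3 in NE libraries, with a log2 fold change of 1.57 and an adjusted p of 0.0104 by limma. CTSS, cathepsin S, was at 16.8, 20.7 and 16.7 normalized counts in Ctrl and at 2.96, 9.69 and 6.40 in NE libraries, with a log2 fold change of -1.48 and an adjusted p of 0.0415 by limma. This rests on 3 to 20 reads a library and was called in 10 of 16 alternatives, with adjusted p up to 0.133 by limma. CTSS reached the filter, a mean of 10, only through the Ctrl libraries, with means of 18.1 in Ctrl and 6.35 in NE. Among abundant members, named after their values were seen, CTSB, cathepsin B, fell from 7077 ± 213 to 4351 ± 268 normalized counts (SD, n = 3) and CST3, cystatin C, from 3538 ± 736 to 1815 ± 595. With the GC correction 4 genes of this list were lower and none was higher. These 4 include CTSC, at -0.89, which was not called before and is named after its values were seen. CTSB was not called with the correction (adjusted p 0.0727 by limma). CTSK then had a log2 fold change of 1.195 with an adjusted p of 0.0503 by limma. Without Ctrl replicate 3, 10 were lower and 3 were higher, and CTSK was at 1.16. Calls over all genes rose in that fit too, to 4890 lower and 4802 higher of 15061. With every library they were 3828 lower and 3693 higher of 15013.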
